A study of Mus musculus with 8 samples.

Results

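The mouse 5S rRNA genes and the 45S rRNA copy that the mm10 build places on chromosome 17 were followed through 6 peak lists. The 5S members were the genes of the RefSeq table with biotype rRNA and a symbol starting with n-R5s, each with 200 bp on either side. There were 51 of them among 49943 annotated genes on the main chromosomes. Of the 51, 40 lay in an array on chromosome 8 (123538784 to 123622046) and 11 were scattered over other chromosomes. The 45S copy was taken as a 10 kb window on chromosome 17 that holds it. Choosing them by annotation and position used no measured value.

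Each list comes from ChIP-seq, in which DNA crosslinked to a protein is recovered with an antibody and sequenced. The cells were primary neural progenitors of the hippocampus of male C57BL/6 mice, with no treatment and no age given in the labels, and the 3 proteins were profiled in 2 replicates each. Mgea5 (now Oga) is the enzyme that takes O-GlcNAc off proteins, Panx2 is a pannexin channel protein, and Polr1c is a subunit that RNA polymerases I and III have in common. There were also 2 input libraries, not analysed here. Peak lists hold no expression values, so the labelled cell type was not checked by markers. The labels name no separate culture or animal for a replicate.

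Ribosomes are built on rRNA. RNA polymerase I transcribes the 45S precursor in the nucleolus, and it is cut into 18S, 5.8S and 28S rRNA. RNA polymerase III makes 5S rRNA from short genes whose promoter lies inside the transcribed sequence, where TFIIIA binds first and brings in TFIIIC and TFIIIB. Both kinds of gene exist as tandem copies of almost the same sequence, and proliferating progenitors transcribe them strongly.

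The folds and q values below are the authors' own values for a peak. The fold is the enrichment of ChIP over background, and the −log10 q is the strength of a peak after the caller's correction, with 2 standing for a q of 0.01. Folds are set side by side but not compared between lists, since list lengths ran from 826 peaks (Polr1c replicate 1) to 536877 (Mgea5 replicate 1). The Polr1c lists are in the narrow-peak format, with a lowest −log10 p of 2, and the Mgea5 and Panx2 lists in the broad-peak format, with a lowest −log10 p of 1. Peak width and list length therefore differ by the form of the calls as well as by protein, and these cannot be told apart. Peak names carry a run directory: Panx2 replicate 1 and Polr1c replicate 1 came from a run A, the other 4 lists from a run B, so within these proteins replicate and run cannot be told apart. With 1 value per peak and 2 lists per protein no test was made, and counts are given beside the same count over all genes. How reads that match several copies were placed is not given in the sources used here. A peak at one unit of the array therefore cannot be told apart from signal of another unit of the same sequence. Since cells were pooled in each library, binding in fewer cells and weaker binding per cell cannot be told apart either.

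The 5S array was a regular ladder. Its 51 annotated units followed each other at a median spacing of 1698 bp, from 1665 to 1727 bp. The units comprised the 40 n-R5s members, 8 further 5S rRNA genes under other symbols (such as Rn5s and Gm26391) and 3 pseudogenes. Of the 40 members, 25 were annotated at 121 bp and 15 at 119 bp, and all 11 members outside the array at 119 bp. The table gives no strand for them, so positions are stated along the chromosome.

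Polr1c replicate 2 marked most of the ladder, one narrow peak to a gene. Of the 40 array members, 33 had a Polr1c peak in that list, with folds from 2.04 to 5.07 and a median of 3.20. The list median was 2.75. The median width of these 33 peaks was 391 bp, and no peak of that list in the array touched more than 1 unit. At a q of at most 0.01 there were 22 members with a peak, whereas 2.14% of all genes had one. Over all peaks of the list, 33 of 51 members (64.7%) had a peak, beside 24.5% of all annotated genes and 6.04% of the 4537 genes of at most 150 bp, whose windows are of similar length. These short genes include the members and the tRNA genes, and without 5S units and tRNA genes 4050 remain, of which 1.7% had a peak in that list.

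The highest fold was at n-R5s128 (123586240 to 123586360), with 5.07 and a −log10 q of 11.8. That peak ranked 214 of 35927 by fold. Next came n-R5s138 (123603245 to 123603365) with a fold of 4.71 and n-R5s118 (123569328 to 123569446) with 4.36. n-R5s124 (123579448 to 123579568) had 4.28 and n-R5s105 (123547263 to 123547383) had 4.0. The 5 genes were spread over the ladder and were not neighbours. The first member, n-R5s100, had a fold of 2.46 and the last, n-R5s149, had 2.09. Members among the first 25 units had a median fold of 3.12 (20 of 24 with a peak), and those among the remaining 26 units 3.24 (13 of 16).

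The 7 array members without a Polr1c peak in replicate 2 were n-R5s101, n-R5s114, n-R5s115, n-R5s119, n-R5s129, n-R5s131 and n-R5s142. n-R5s114 and n-R5s115 are neighbours, and the next unit, Gm25018, had no Polr1c peak either. Of the 7, 6 (85.7%) had a Mgea5 peak in at least 1 replicate, near the 92.5% of all 40 array members, and n-R5s115 had none.

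**Figure D1:**
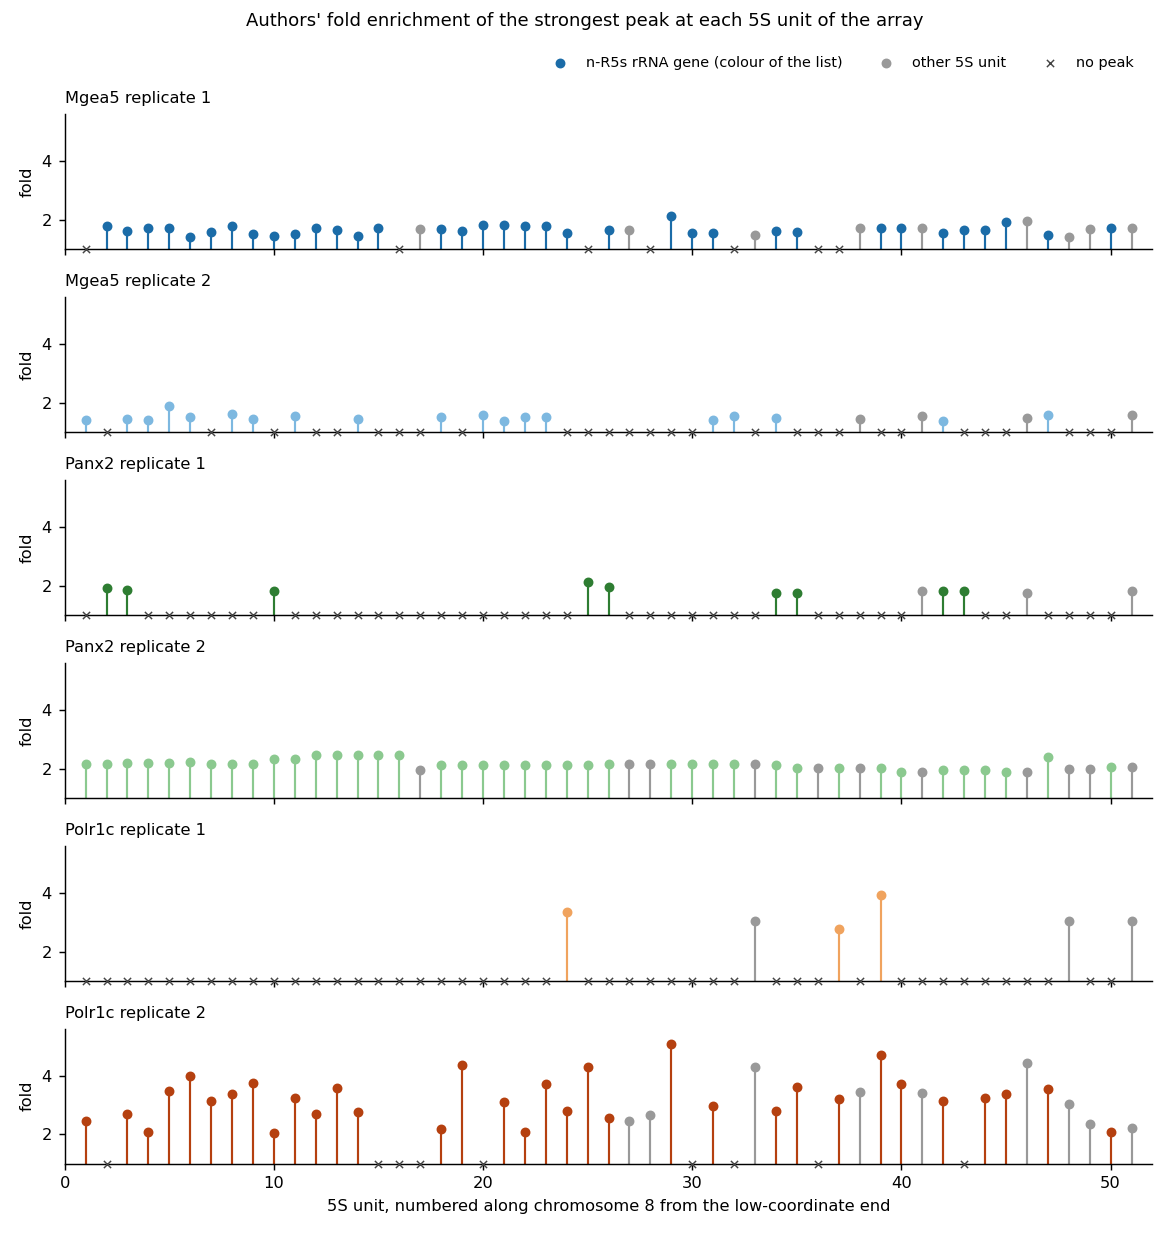
Each panel is 1 peak list. The x axis is the 51 units of the 5S array in chromosome order, the y axis the authors' fold of the strongest peak within the unit and 200 bp on either side; coloured points are n-R5s rRNA genes, grey points other units, crosses units without a peak, and stems start at a fold of 1. Polr1c replicate 2 has peaks at 33 of 40 members with folds up to 5.07, Polr1c replicate 1 at 3, and Panx2 replicate 2 at all 40 with folds of 1.87 to 2.48.

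Polr1c replicate 1, a list of 826 peaks, held 6 peaks in the array, each touching a 5S unit. They lay at the members n-R5s123 (fold 3.34), n-R5s136 (2.76) and n-R5s138 (3.92), at the 5S genes Gm26391 and Gm22291, and at the pseudogene Gm23647 at the high-coordinate end. The latter 3 had a fold of 3.05 each. All 6 had a deposited −log10 q of 0, so none passes a q of 0.01. Polr1c replicate 2 had a peak at the same 6 units, with folds of 2.78 at n-R5s123, 3.20 at n-R5s136, 4.71 at n-R5s138, 4.29 at Gm26391, 3.05 at Gm22291 and 2.21 at Gm23647. Polr1c peaks of both replicates were thus at 3 of 51 members (5.88%). Among all genes the share was 0.919%, among short genes 2.6%, and among short genes other than 5S and tRNA 0.123%. In replicate 1 alone the share was again 3 of 51, beside 1.13%, 3.24% and 0.148%. The 3 members with both were all in the array, and the replicate 1 list set this count.

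Summits lay close to the genes. In Polr1c replicate 2, 39 of 47 summits in the array (83.0%) were within 200 bp of the centre of a unit, a zone that makes up 23.6% of the array. Summits sat a little to the high-coordinate side, at a median of 58 bp from the centre (quartiles 27 and 100 bp), which for genes of 119 or 121 bp is about the gene's edge, and 39 of 47 were on that side. All 27 peaks with a q of at most 0.01 were among those within 200 bp. The 8 summits farther out had a median fold of 2.38, beside 3.23 for the 39. In replicate 1, 4 of 6 summits were within 200 bp. Polr1c peaks of replicate 2 covered 72.4% of the bp within 60 bp of a unit's centre and 3.23% of the bp more than 400 bp away.

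**Figure D2:**
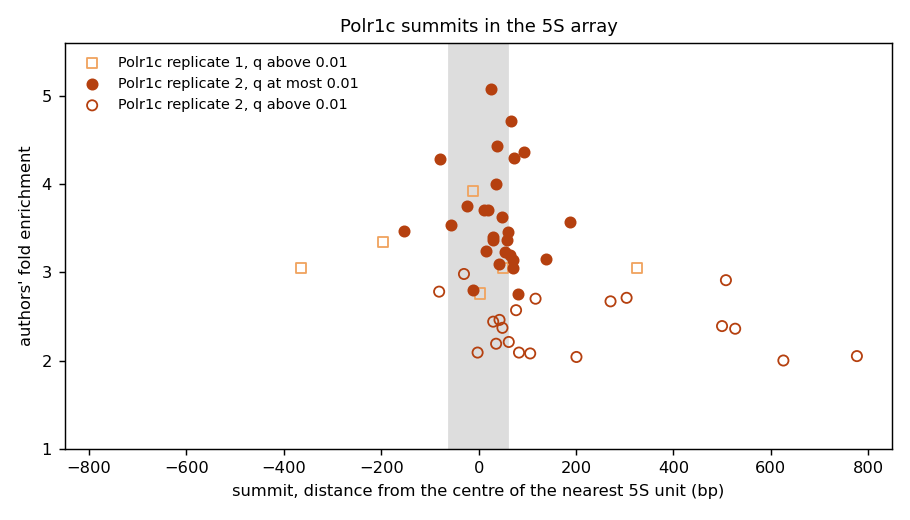
Each point is a Polr1c peak of the 5S array; x is the distance of its summit from the centre of the nearest unit in bp along the chromosome, y the authors' fold, and the grey band spans 60 bp on either side. Filled points have a q of at most 0.01 and all 27 lie within 200 bp of a centre.

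In the 50 kb on the low-coordinate side of the array Polr1c replicate 2 had 2 peaks and on the high-coordinate side 1, against 47 in the array, and replicate 1 had none on either side. The mean over the genome span is 0.656 peaks per 50 kb in replicate 2 and 0.0148 in replicate 1. Peaks covered 20.9% of the array in replicate 2, beside 0.604% and 0.590% of the flanks and 0.284% of the genome span.

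Mgea5 peaks at the array were weak and unequal between the replicates, with a median width at members of 942 bp in replicate 1 and 401 bp in replicate 2. In replicate 1, 35 of the 40 array members had one, with folds of 1.42 to 2.13 and a median of 1.66, below the list median of 1.71. Replicate 2 had peaks at 19 array members, with folds of 1.37 to 1.89 and a median of 1.51, at percentile 1.95 of its list. The strongest were at n-R5s128 in replicate 1 (2.13) and n-R5s104 in replicate 2 (1.89). The highest −log10 q at a member was 0.220 in replicate 1, and all were 0 in replicate 2.

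Counted over all 51 members, 37 had a Mgea5 peak in replicate 1 (72.8% of all genes, 32.2% of short genes, 30.4% of those other than 5S and tRNA) and 20 in replicate 2 (67.1%, 24.7% and 23.1%). Both replicates had one at 17 members (33.3%), beside 60.2%, 10.9% and 9.46%. The share was above that of short genes and below that of all genes, most of which are longer. Mgea5 coverage of the array was 46.8% in replicate 1, higher than in its flanks (23.7% and 29.6%), whereas in replicate 2 it was 15.4%, lower than in the flanks (21.8% and 21.0%). The replicates thus differed in whether the array stood above its surroundings.

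Within the repeat, Mgea5 coverage was higher at the genes than on their low-coordinate side in both replicates. In replicate 1 it was 71.0% in the 100 bp around the centre of a unit and 73.9% at 200 bp on the high-coordinate side, and 23.5% at 400 and 500 bp on the low-coordinate side. In replicate 2 the values were 22.2% at the centre, 22.0% at 200 bp on the high side, and 8.53% and 7.84% at 400 and 500 bp on the low side. The coverage reached farther on the high-coordinate side, with 62.5% at 500 bp in replicate 1 and 18.1% in replicate 2.

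Panx2 replicate 2 covered most of the array, in 20 peaks parted by 19 gaps of 610 to 1043 bp. All 40 array members had a peak, with folds of 1.87 to 2.48 and a median of 2.16, at percentile 88.4 of the list. Of these peaks, 17 served the 40 members, and the widest, of 9385 bp, lay over 6 units. The highest fold, 2.48, belonged to 1 peak over 4 units, among them n-R5s111. The highest −log10 q at a member was 1.36, at n-R5s146 (fold 2.41), so no member passed a q of 0.01. Coverage was 83.7% in the array and 34.7% and 21.9% in the flanks. By position it was lowest at 500 bp on the low-coordinate side (64.7%) and reached 98% at 200 to 300 bp on the high side.

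Panx2 replicate 1 differed from that. It had peaks at 9 array members, with folds of 1.76 to 2.14, each with a −log10 q of 0, and covered 14.7% of the array (1.33% and 5.01% of the flanks). Its coverage at the genes (12.6% within 60 bp of a centre) was no higher than in the spacers (14.4%). The strongest was at n-R5s124 (2.14). Over all 51 members the Panx2 counts were 9 in replicate 1 (39.9% of all genes, 6.85% of short genes, 6.2% of those other than 5S and tRNA) and 44 in replicate 2 (72.2%, 29.9% and 28.9%). Both replicates had a peak at 9 members (17.6%), beside 36.6%, 2.29% and 1.9%.

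**Figure D3:**
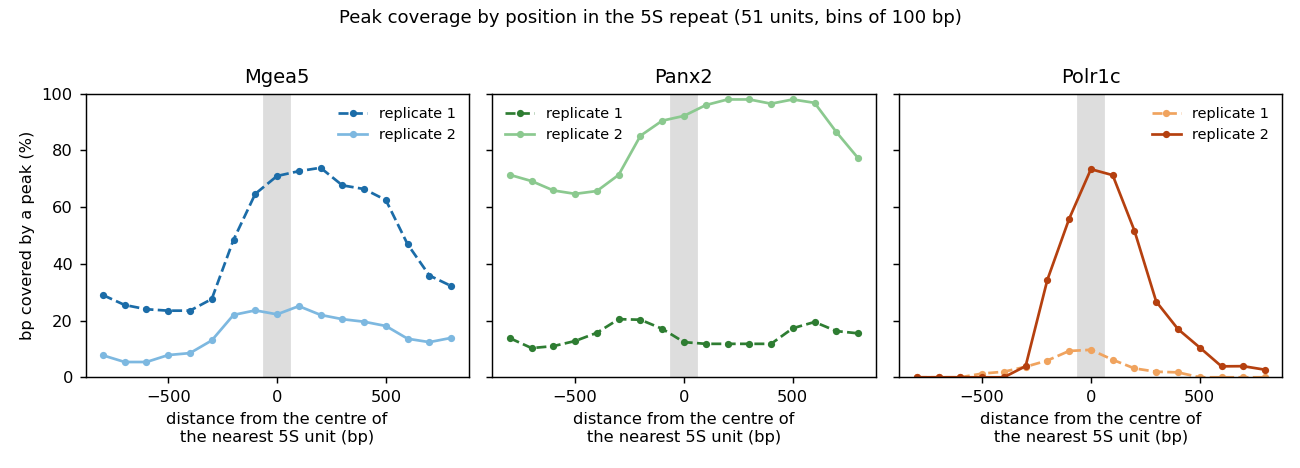
Percent of bp covered by a peak, by distance from the centre of the nearest of the 51 units in bins of 100 bp, for each protein and replicate; the grey band marks 60 bp on either side of the centre. Polr1c replicate 2 falls from 73.4% at the centre to 0 at 400 bp on the low-coordinate side, Mgea5 replicate 1 and Panx2 replicate 2 stay higher on the high-coordinate side, and Panx2 replicate 1 has no maximum at the genes.

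Of the 33 array members with a Polr1c replicate 2 peak, 30 had a Mgea5 replicate 1 peak (90.9%, beside 87.5% of all 40) and 17 a Mgea5 replicate 2 peak (51.5%, beside 47.5%). All 4 lists of run B had a peak at 16 members, which is 31.4% of the 51, beside 22.7% of all genes, 1.1% of short genes and 0.346% of short genes other than 5S and tRNA. No member had a peak in all 6 lists, which at this number is near the 0.589% of all genes and 0.0661% of short genes. In 5 lists 3 members had one and in 4 lists 18, and these counts were not made over all genes.

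Of the 11 members outside the array, 5 had a peak in at least 1 list, a count that was not made over all genes. Neither Polr1c list had a peak at any of them, which at this number is near the shares of short genes given above. The Mgea5 lists had peaks at n-R5s151 (chromosome 7, 16471813 to 16471931, fold 1.81) and n-R5s28 (chromosome 17, 47848834 to 47848952, fold 1.61) in replicate 1 and at n-R5s33 (chromosome 16, 33001903 to 33002021, fold 1.81) in replicate 2. Panx2 replicate 2 had peaks at n-R5s151 (1.97), n-R5s28 (1.93), n-R5s211 (chromosome 1, fold 1.90) and n-R5s58 (chromosome 12, fold 1.77), and Panx2 replicate 1 at none. The other 6 members, n-R5s194 and n-R5s195 on chromosome 3, n-R5s162 on chromosome 6, n-R5s25 on chromosome 18, and n-R5s2 and n-R5s13 on the X chromosome, had no peak in any list. The shares with a peak in the array and outside it were, in this order, 87.5% and 18.2% for Mgea5 replicate 1, 47.5% and 9.09% for replicate 2, 22.5% and 0 for Panx2 replicate 1, 100% and 36.4% for replicate 2, 7.5% and 0 for Polr1c replicate 1 and 82.5% and 0 for replicate 2. Short genes other than 5S and tRNA had 30.4% and 23.1% for Mgea5 and 6.2% and 28.9% for Panx2. The outside shares were below these in Mgea5 and Panx2 replicate 1 and above in Panx2 replicate 2, and 11 genes make them coarse. All 11 were annotated at 119 bp, beside 15 of 40 in the array, and shares were not split by length.

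**Figure D4:**
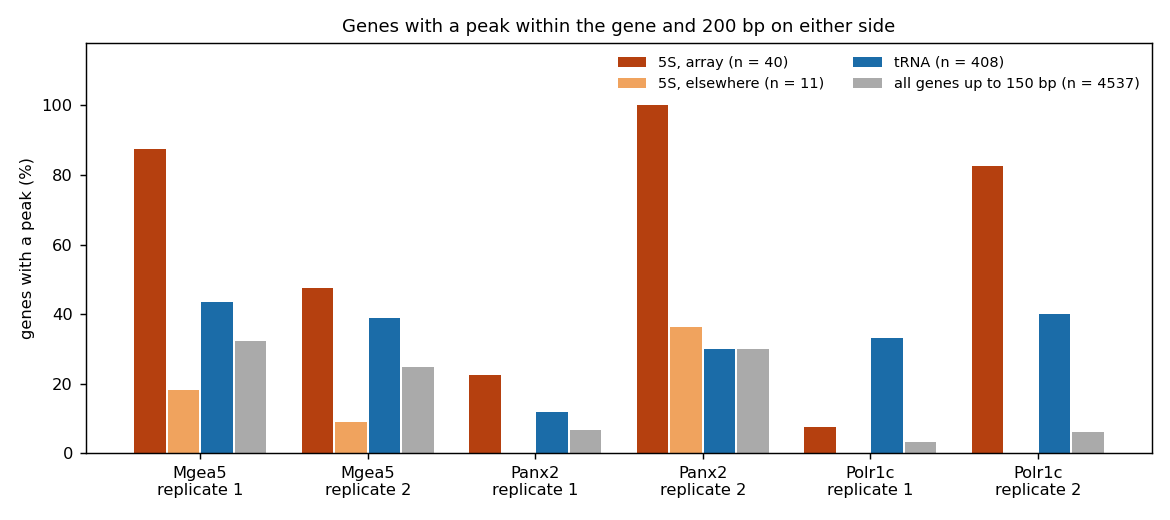
Bars give the percent of genes with a peak in each list for the 40 array members, the 11 members elsewhere, 408 tRNA genes and all 4537 genes of at most 150 bp; a missing bar is 0. The array members are above the members elsewhere in each list, the short genes include the members and tRNA genes, and in Polr1c replicate 1 tRNA genes (33.1%) are above array members (7.5%).

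Among genes of RNA polymerase III the nearest comparison is with tRNA genes, short genes with a promoter inside the transcribed sequence too. In Polr1c replicate 2 a peak was at 163 of 408 tRNA genes (40.0%, median fold 3.46), beside 82.5% of array members (median 3.20). In replicate 1 a peak was at 135 tRNA genes (33.1%, median fold 5.51), beside 7.5% of array members, so the order of the shares was the opposite. At a q of at most 0.01, replicate 1 had peaks at 105 tRNA genes (25.7%) and 0 array members, beside 0.469% of all genes. In replicate 2 they were at 108 tRNA genes (26.5%) and 22 array members (55.0%), beside 2.14% of all genes. Of 9 single genes of RNA polymerase III, Polr1c peaks in both replicates were at Vaultrc5, a vault RNA gene (folds 7.40 and 5.61), and at the 7SL RNA genes Rn7s1 (3.41 and 2.38) and Rn7s2 (4.46 and 2.55). These 3 are 33.3% of the 9, beside 0.919% of all genes. Rn7s1 did not pass a q of 0.01 in either list (−log10 q of 0 and 0.83), whereas the other 2 passed in both. These class differences were not tested.

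The 45S window held 1 enriched block with nearly the same limits in each list: the first covered bp lay between 39843002 and 39843077 and the last between 39848735 and 39848832, a spread of 75 and 97 bp over 6 lists. All 6 covered 5025 bp in common. The annotation places only a pseudogene of 18S rRNA, Rn18s-rs5 (39846354 to 39848202), and the low-coordinate end of the lncRNA gene AY036118 (39848112 to 39898385) there, and the table used has no 45S gene in the window. In each list the block began well before Rn18s-rs5 and ended beyond it.

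Polr1c replicate 2 had 1 peak of 5791 bp with a fold of 2.32 and a −log10 q of 12.7. In replicate 1 the block was broken into 3 peaks, with gaps of 389 and 245 bp. Their folds were 1.78, 1.84 and 1.61 and their −log10 q 6.47, 7.06 and 2.73. Both Polr1c lists thus passed a q of 0.01 here, while their folds were below the list medians of 3.05 and 2.75. By −log10 p the peaks ranked 156, 153 and 229 of 826 in replicate 1 and 244 of 35927 in replicate 2. The summits fell at 39843627, 39846702 and 39847555 in replicate 1 and at 39844327 in replicate 2, so no point of the block was shared as a maximum.

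Mgea5 had 1 peak in each replicate, of 5793 and 5749 bp, with folds of 2.06 and 1.65. The −log10 q was 6.07 and 1.62, and the peaks ranked 19 of 536877 and 106 of 521566 by −log10 p. By fold the peaks lay at percentiles 95.3 and 25.1 of their lists, so the replicate 2 fold was below its list median of 1.71. Panx2 had 1 peak of 5659 bp in replicate 1 and 1 of 5831 bp in replicate 2, with folds of 1.34 and 3.92 and −log10 q of 0.284 and 28.3. The Panx2 replicate 2 peak ranked 4 of 478662 by −log10 p. The Panx2 replicate 1 peak was among the lowest folds of its list, at percentile 0.00688, and yet ranked 42 of 145405 by −log10 p. A q of at most 0.01 was reached by 1 of 2 lists for Mgea5 and Panx2 and by both for Polr1c.

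**Figure D5:**
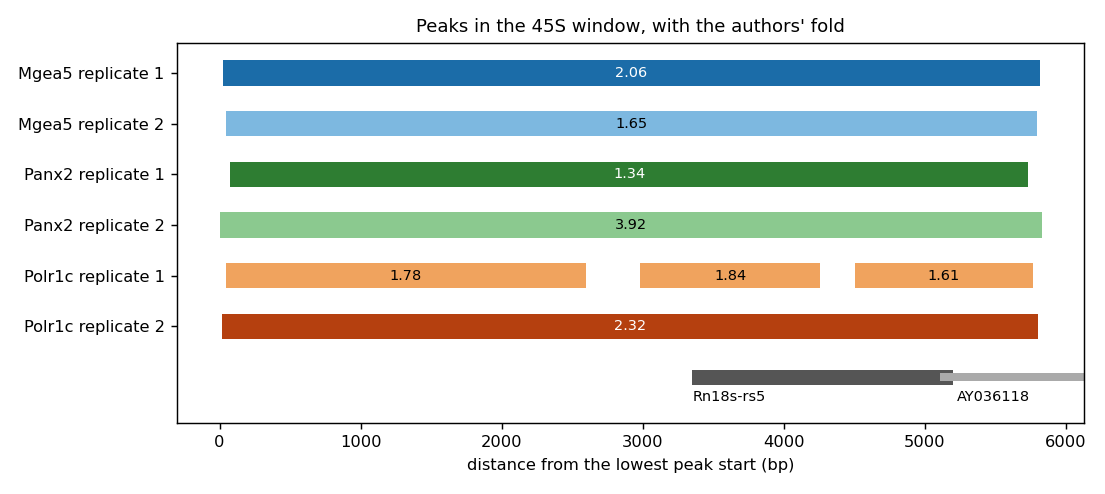
Bars are the peaks of the 45S window in each list, placed by distance in bp from the lowest peak start, with the authors' fold printed on each; grey bars below show Rn18s-rs5 and the low-coordinate end of AY036118, which runs on beyond the plot. Starts and ends agree to within 75 and 97 bp over the 6 lists, and Polr1c replicate 1 alone is split, into 3 peaks.

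In the 50 kb on the low-coordinate and the high-coordinate side of the 45S window there were 1 and 7 peaks in Mgea5 replicate 1, 0 and 4 in replicate 2, 5 and 4 in Panx2 replicate 1, 1 and 1 in replicate 2, and none in either Polr1c list. The mean over the genome span is 9.85 and 9.57 peaks per 50 kb for Mgea5 and 2.67 and 8.78 for Panx2, so Mgea5 and Panx2 replicate 2 had fewer than that beside the window and Panx2 replicate 1 more. All of these neighbours had a −log10 q of 0. Most rRNA gene copies are not placed on the chromosomes of this build, so their signal and that of the chromosome 17 copy cannot be told apart.

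By their highest values the 2 kinds of rRNA gene ranked differently by fold and by q, except in Panx2 replicate 2. The array value is the highest of many peaks, whereas the window held 1 peak in each list but Polr1c replicate 1. In Polr1c replicate 1 the array reached a fold of 3.92 with a −log10 q of 0, and the 45S window a fold of 1.84 with a −log10 q of 7.06. In replicate 2 the array reached 5.07 with 11.8 and the window 2.32 with 12.7. For Panx2 replicate 2 the window was higher on both, with 3.92 and 28.3 against 2.48 and 1.36. In Panx2 replicate 1 the array reached 2.14 with 0 and the window 1.34 with 0.284. For Mgea5 the highest folds of array and window were 2.13 and 2.06 in replicate 1, at percentiles 97.1 and 95.3 of the list. In replicate 2 they were 1.89 and 1.65, at percentiles 85.8 and 25.1. The −log10 q went the other way, with 0.220 and 6.07 in replicate 1, and 0 and 1.62 in replicate 2. Against the median fold at array members, 1.66 and 1.51, the window was the higher in both Mgea5 replicates, as by q. In Polr1c replicates 1 and 2 and Panx2 replicate 1 that median (3.34, 3.20 and 1.83) was above the window's fold.

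The genes that make these rRNAs or work on them were looked at as a list of 38, all in the table, within 1000 bp of either gene end. A gene counted for both replicates also where their peaks lay at different ends or did not overlap. Mgea5 peaks of both replicates were at 31 of 38 (64.3% of protein-coding genes), with a median fold of 1.81 and 1.74 (1.78 and 1.73 over all protein-coding genes). The highest geometric means were at Tbp, the TATA-binding protein of all 3 polymerases (2.61 and 1.91), Wdr12, a 60S assembly factor (2.11 and 2.17), Maf1, the repressor of RNA polymerase III (1.96 and 2.17), and Gtf3c5, a TFIIIC subunit (2.20 and 1.88). The peaks with these folds overlapped between the replicates at Tbp, Maf1 and Gtf3c5, whereas at Wdr12 they lay at opposite gene ends. Panx2 peaks of both replicates were at 13 of 38 (20.1%). They were highest at the TFIIIB genes Bdp1 (1.91 and 2.46) and Brf1 (1.80 and 2.39), at Taf1c of the RNA polymerase I selectivity factor (1.76 and 2.32) and at Taf1a of the same factor (2.10 and 1.93). Of these, only the Bdp1 peaks overlapped between the replicates. The Brf1 peaks lay at opposite gene ends, and those of Taf1c and Taf1a lay apart at the same end. None of the Mgea5 or Panx2 peaks at the list passed a q of 0.01. Such peaks were rare at all protein-coding genes too, at 0.388% and 0.452% for Mgea5 and 0 and 0.247% for Panx2 in replicates 1 and 2.

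Polr1c peaks of both replicates were at none of the 38 (0.521% of protein-coding genes), and replicate 2 alone had peaks at 8 (17.5%). By role, 4 of 11 genes of 5S transcription had one, 1 of 6 of the 5S ribonucleoprotein, 1 of 7 of 45S transcription and 2 of 14 of 45S processing. The strongest was at Gtf3c5 (chromosome 2, 28566245 to 28583279), whose product helps load the polymerase on 5S and tRNA genes: the peak at 28582931 to 28583369 had a fold of 3.75 and a −log10 q of 4.16, the only one of the 8 to pass a q of 0.01. That 1 gene is 2.63% of the 38, near the 2.22% of all protein-coding genes with such a peak in replicate 2. The nucleolin gene Ncl (3.67), Rrn3, the initiation factor of RNA polymerase I (3.35), and Bdp1 (3.11) followed.

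The Gtf3c5 peak reached into the promoter, which is printed because that peak is the one of the 8 with a q of at most 0.01. The sequence is RefSeq's for GRCm38.p6, whose chromosome coordinates are those of mm10, chr2:28583230-28583529, minus strand, from 250 bases before to 50 bases after the gene's start. Capitals mark the 140 bases inside the peak.
Gtf3c5 promoter: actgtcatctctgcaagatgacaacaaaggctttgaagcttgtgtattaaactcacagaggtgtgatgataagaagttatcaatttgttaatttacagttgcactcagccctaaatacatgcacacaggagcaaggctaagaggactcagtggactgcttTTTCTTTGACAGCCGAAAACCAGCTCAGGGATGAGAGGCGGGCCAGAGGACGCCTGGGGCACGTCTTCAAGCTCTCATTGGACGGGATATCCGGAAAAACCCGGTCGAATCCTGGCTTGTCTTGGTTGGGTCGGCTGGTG
The letters TATAAA, those of a TATA box, were searched on both strands and were not found in these 300 bases, whereas 13.6% of all 32851 promoters of that length in the table held them. The letters CCGGAAG, found in many ETS factor sites, were not found either and were held by 8.86% of the promoters. Their shorter form CCGGAA, searched after the sequence was seen, occurs 1 time, inside the peak, and 14.9% of the promoters hold it. The promoter table matched 32 of the 38 genes of the list and 0 of the 51 members, so no 5S sequence is shown.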

How the data were processed

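ChIP-seq of 3 proteins in 2 replicates each gave 6 deposited peak lists. Reads were trimmed with Trim Galore, aligned with Bowtie2 2.3.5 to mm10 and given to MACS3 3.0.0a5 for peaks, per the submitters' processing notes. Control, cut-offs and treatment of reads with several matches: not given in the sources used here. Each peak has, as deposited by the authors, a score, a fold enrichment (ratio), a −log10 p and a −log10 q; the Polr1c lists also have a summit, and for the other lists the centre of the peak was used. Read depth was not analysed here, so its part in list length was not tested.

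Peaks were intersected with RefSeq gene positions on 21 chromosomes (overlap of at least 1 bp), in Python 3.11.15 with pandas 2.3.3 and numpy 2.4.6. The overlap code was tested on simulated data. Percentiles and ranks are within a list. Columns of unmapped samples numbered 0. Alternatives were the q threshold, the flank, the overlap rule, leaving out a replicate and the set of members.

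Members and lists were chosen with earlier results of these data known. Named by rule were the members outside the array, its first and last member, up to 5 members with the highest fold per Polr1c list, the genes in the 45S window, and up to 4 genes of the list of 38 per protein with the highest geometric mean fold in both replicates. Other genes were named after their values were seen.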

Additional observations from a re-analysis of the deposited data

How the results depend on the processing

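The 27 results gave 124 values under alternatives, of which 44 moved. A count was taken as moved when it differed from that in the report by more than 1.5 times, and a fold when it differed by more than the SD of the 2 replicates; the other 80 did not, among them 33 to 22 members for Polr1c replicate 2. With −log10 q of at least 2 or of at least 5, 0 members had a peak in both Mgea5 lists, both Panx2 lists and Polr1c replicate 1, and 0 had one in both replicates of any protein; Polr1c replicate 2 had 22 and 10. In the 45S window 0 peaks were left at either threshold in Mgea5 replicate 2 and Panx2 replicate 1. Without the flank, Mgea5 replicate 2 had 12 members with a peak and a highest fold of 1.63, both Mgea5 replicates had 10 and both Panx2 replicates 5. With a flank of 1000 bp, Mgea5 replicate 2 had 31 and Panx2 replicate 1 had 21, with 28 for both Mgea5 and 20 for both Panx2 replicates. With the peak centre or summit required inside, the counts were 14 and 13 for Mgea5, 3 and 7 for Panx2, 4 for both Mgea5 and 0 for both Panx2 replicates. With at least 50% of the gene body covered, they were 8 for Mgea5 replicate 2, 5 for Panx2 replicate 1, 6 for both Mgea5 and 4 for both Panx2 replicates. Adding the other 8 5S genes of the array, an alternative chosen after seeing the data, gave 5 for Polr1c replicate 1 and 5 for both Polr1c replicates. Leaving out 1 replicate put the count in both replicates at 20 to 37 for Mgea5, 9 to 44 for Panx2 and 3 to 33 for Polr1c. The cause of these shifts was not tested, beyond the stricter or looser construction of each setting.

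The annotated 45S gene was not run as a window, since the table used holds no such gene there; Rn18s-rs5 took its place, chosen after seeing the data. A ratio of replicate folds has no value without a replicate, and lists with no peak past a threshold give no highest fold there. No paired analysis was possible because the results come from no test.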

Other observations

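Of the 8 other 5S rRNA genes in the array, 7 and 2 had a Mgea5 peak in replicates 1 and 2 (87.5% and 25%, beside 87.5% and 47.5% of array members). For Panx2 the counts were 2 and 8 (25% and 100%, beside 22.5% and 100%), and for Polr1c 2 and 6 (25% and 75%, beside 7.5% and 82.5%). With 8 genes these shares are coarse. Gm25212 had the highest Polr1c fold of them, 4.43 in replicate 2 with a −log10 q of 11, and Rn5s, the unit with the plain gene symbol, had no Polr1c or Mgea5 peak. The 3 array pseudogenes each had a Polr1c peak in replicate 2, with folds of 3.45 at Rn5s-ps1, 2.67 at n-R5s127 and 2.21 at Gm23647. These genes were named after their values were seen.

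The 17 n-R5s pseudogenes outside the array had no Polr1c peak in either list and no Panx2 peak in replicate 1. Mgea5 peaks were at 7 and 3 of them (41.2% and 17.6%) and Panx2 replicate 2 peaks at 6 (35.3%). Short genes other than 5S and tRNA had a Mgea5 peak at 30.4% and 23.1%, a Panx2 peak at 6.2% and 28.9%, and a Polr1c peak at 0.148% and 1.7% in replicates 1 and 2, so 0 of 17 for Polr1c is near them. The pseudogene n-R5s92 on chromosome 9 was the one with a Mgea5 peak in both replicates (folds 1.91 and 1.58). The rRNA genes LOC115490001 on chromosome 4 and LOC115488082 on chromosome 12, also 119 bp long, had a peak in Panx2 replicate 2 alone, with folds of 2.19 and 1.90.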
